A study of Drosophila melanogaster with 12 samples.

Results

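The Hippo pathway restrains the growth of Drosophila epithelia, and 10 of its genes were taken here by name: yki, sd, hpo, sav, wts, mats, ex, kibra, ft and ds. Of these, 9 were paired with a row of the deposited table of 17158 FlyBase identifiers. The identifier that the annotation gives for ds matched no row, so ds is not analysed here. The genes were chosen by function, with earlier results of these data known.

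The data are poly(A) RNA of wing imaginal discs, the larval epithelial sacs that form the adult wings, from Drosophila melanogaster in the third instar. In regenerating discs apoptosis had been induced, and they were collected at 0 h, 15 h and 25 h after induction. Undamaged discs kept under the same conditions served as controls at the same times. Every group, 6 in all, was made of 2 libraries from 40 discs each. The labels call the regenerating and control discs different genotypes without naming an allele, a driver or the agent of induction, so which cells died is not given. The values are FPKM, fragment numbers normalised for transcript length and sequencing depth, deposited as 1 merged value per gene and group. No spread between replicates can be computed from them, so the values below carry no SD, no test and no p-value, and no difference between groups has a replicate check.

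In the core of the pathway, the kinase Hippo with its scaffold Salvador activates the kinase Warts with its cofactor Mats. Warts phosphorylates the coactivator Yorkie and keeps it out of the nucleus. Unphosphorylated Yorkie enters the nucleus, binds the TEAD-family DNA-binding protein Scalloped and switches on genes of growth and survival. Expanded and Kibra are apical proteins that feed into the kinases, and both genes are themselves reported targets of Yorkie. The large cadherins Fat and Dachsous bind each other on neighbouring cells and act on Warts and on planar polarity. Much of this control acts on proteins, which RNA levels do not show.

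FPKM columns differed in a way that bears on every ratio. The median measured gene, among those reaching 1 FPKM in either column, stood at a log2 ratio of regenerating over control of 0.47 at 0 h, 0.35 at 15 h and 0.10 at 25 h. Log2 ratios of single genes below are of (FPKM + 1), which understates the change of low genes, and are to be read against that median. Level ratios between 2 genes in 1 column, and their shifts, are of FPKM without a pseudocount. Dividing the columns by median-of-ratios factors moves log2 ratios without a pseudocount by -0.54, -0.39 and -0.05 at these times. With the pseudocount low genes moved less, as kibra did at 0 h, from 0.50 to 0.12. The median of all measured genes became -0.02, -0.01 and 0.06. A gene counted as past the rule where its log2 ratio was at least 1 in size, a 2-fold difference. Values of control discs at 0 h carry no more than 2 decimals, unlike those of the other groups, and whether that column is a mean or 1 library is unclear. None of the 54 member values was at 0, and 19 of them had lost their decimal point in the deposited text and were restored. All 11 wing disc marker genes checked, among them vg, nub and ap, were above 1 FPKM in every group. Their summed level was 209, 307 and 340 FPKM in control and 255, 429 and 278 FPKM in regenerating discs at 0 h, 15 h and 25 h, thus higher in regenerating discs at the first 2 times and lower at 25 h, as were sd, hpo and mats. Fat body, a tissue that can cling to dissected discs, showed in its 5 markers a summed level of 5.68 to 194 FPKM in control and 115 to 552 FPKM in regenerating discs, higher in regenerating discs at all 3 times. The 5 markers of adult muscle precursors, which lie under the disc epithelium, summed to 29.8, 33.0 and 26.9 FPKM in control and 41.3, 51.1 and 50.1 FPKM in regenerating discs. The 2 matched tracheal markers summed to 54.7, 74.1 and 79.7 FPKM and 73.7, 96.4 and 119.5 FPKM. The part of these tissues in the values below was not tested.

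Levels differed widely among the members, and the order was similar in all groups. FPKM is scaled to length, so levels are set side by side here, although ratios between some columns still varied with length, as given below. The genes for the transcription pair and for Mats were the highest members, with sd at 21.0 to 69.8 FPKM, mats at 22.3 to 53.5 FPKM and yki at 20.1 to 45.5 FPKM. The genes hpo, sav and ex lay between 8.22 and 30.7 FPKM. The lowest were ft at 3.61 to 8.01 FPKM, wts at 2.94 to 6.26 FPKM and kibra at 1.95 to 3.77 FPKM, in this order in every group. Among genes of at least 1 FPKM in regenerating discs at 15 h, sd stood at percentile 79.0 of level and kibra at percentile 9.2. In FPKM the kinase gene wts thus stood at a fraction of its cofactor gene mats, with a level ratio of wts over mats of 0.1 to 0.18. Their exonic lengths are 5803 and 1716 bases, and the part of length in this ratio was not tested. The gene at the top of the order was mats in control discs at 0 h, sd in the next 4 groups and yki in regenerating discs at 25 h. Whether neighbours in this order differ beyond replicate spread cannot be told from merged values.

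**Figure D1:**
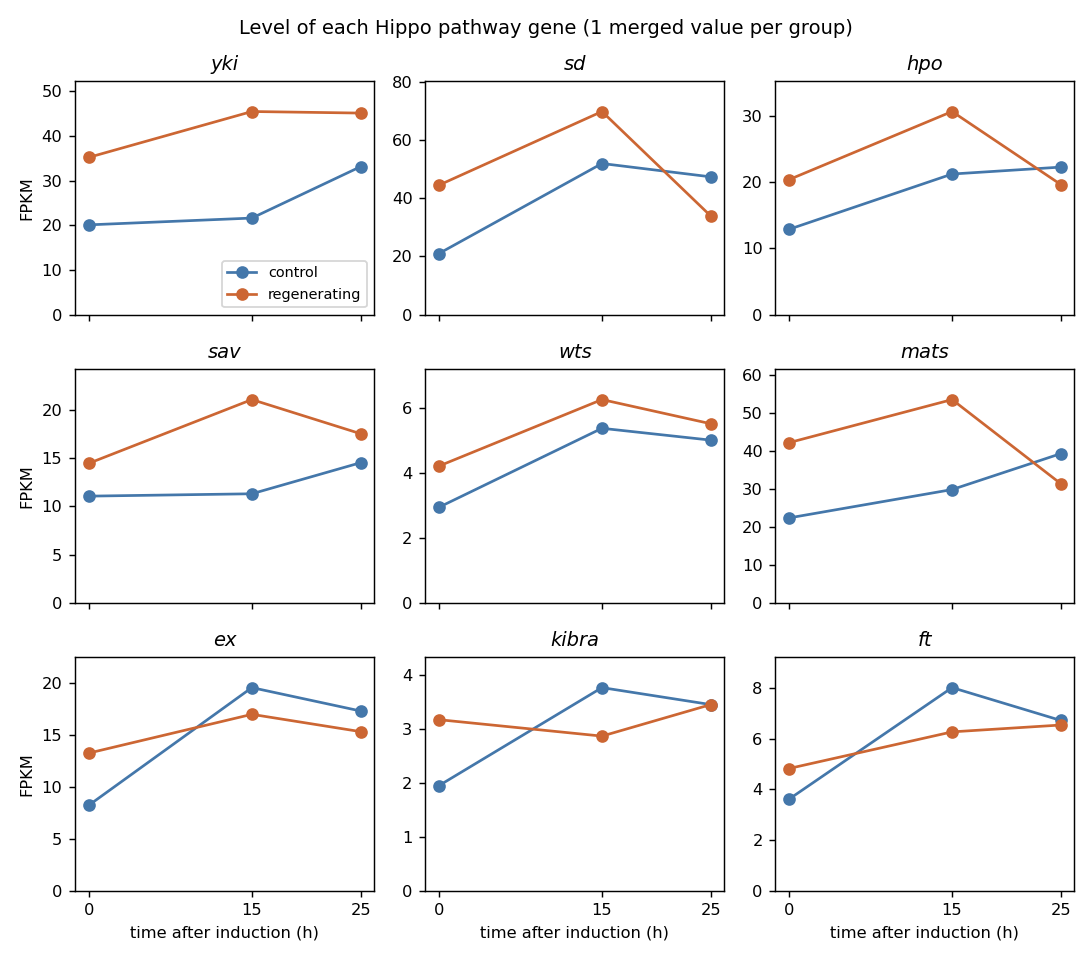
FPKM (vertical axes, from 0) of the 9 genes at 0 h, 15 h and 25 h in control and regenerating discs. Each point is the authors' merged value of a group, without error bars because replicates are not given separately. The regenerating line of yki lies above control throughout, and that of sd crosses below it at 25 h.

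The coactivator gene yki (FBgn0034970, chromosome 2R, 24065975 to 24068485, minus strand, dm6 assembly) was higher in regenerating than in control discs at all 3 times. It stood at 20.1, 21.6 and 33.1 FPKM in control discs and at 35.2, 45.5 and 45.1 FPKM in regenerating discs at 0 h, 15 h and 25 h. The lowest regenerating value was above the highest control value. The log2 ratios were 0.78, 1.04 and 0.43, or 0.31, 0.69 and 0.33 relative to the median of all measured genes. After median-of-ratios scaling they were 0.26, 0.66 and 0.39, so the direction held at each time under both scalings, while the 15 h ratio was past the rule only as deposited. Within control discs yki was the member with the largest step from 15 h to 25 h, at a log2 ratio of 0.59 and percentile 95.7 of all measured genes. In regenerating discs it stood at -0.01 over the same interval. Whole discs were measured, so here and below a different share of cells that express a gene and a different amount of RNA per cell cannot be told apart.

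The gene sd (FBgn0003345, chromosome X, 15804370 to 15827682, plus strand) encodes the DNA-binding partner of Yorkie and, with Vestigial, a factor that specifies wing identity. It stood at 21.0, 52.0 and 47.4 FPKM in control discs and at 44.5, 69.8 and 33.9 FPKM in regenerating discs. Regenerating discs were higher at 0 h and 15 h and lower at 25 h, so the ranges of the 2 conditions overlap. The log2 ratios were 1.05, 0.42 and -0.47, or 0.58, 0.07 and -0.57 relative to all genes and 0.53, 0.03 and -0.52 after scaling. Only the ratio at 0 h was past the rule, as deposited. Over time sd had the largest steps of any member, a log2 ratio of 1.27 from 0 h to 15 h in control discs and -1.02 from 15 h to 25 h in regenerating discs. These lay at percentiles 98.4 and 2.4 of all measured genes, and both were within the rule after scaling, at 0.89 and -0.86.

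Both yki and sd were higher in regenerating discs at 0 h and 15 h, and at 25 h yki was higher and sd lower. Their level ratio within a column does not depend on how columns are scaled. In control discs the FPKM of yki was 0.957, 0.416 and 0.699 times that of sd at 0 h, 15 h and 25 h. In regenerating discs it was 0.791, 0.651 and 1.33 times. Regenerating discs were thus below control at 0 h and above it at 15 h and 25 h, by -0.28, 0.65 and 0.93 on the log2 scale. At 25 h this was the largest shift of any of the 36 pairs of members. It restates that, of the members, yki had the highest and sd the lowest ratio at 25 h, so it is not separate support. The exonic lengths of yki and sd are 1525 and 8766 bases, and the part of length in this shift was not tested.

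The core kinase gene hpo (FBgn0261456, chromosome 2R, 19493996 to 19496856, minus strand) stood at 12.9, 21.2 and 22.3 FPKM in control discs and at 20.4, 30.7 and 19.6 FPKM in regenerating discs. It was higher in regenerating discs at 0 h and 15 h and lower at 25 h. Relative to all genes its log2 ratios were 0.15, 0.16 and -0.28. The exons of hpo overlap those of Rep on the opposite strand by 130 bases, 4.64% of its exonic length.

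The scaffold gene sav (FBgn0053193, chromosome 3R, 23058609 to 23061304, minus strand) stood at 11.1, 11.3 and 14.5 FPKM in control discs and at 14.5, 21.1 and 17.5 FPKM in regenerating discs. Its log2 ratios were 0.36, 0.84 and 0.26, highest at 15 h, where it lay at percentile 88.0 of all measured genes. At 0 h its direction turned under median-of-ratios scaling, to -0.15. The exons of sav share 73 bases with Ctns on the same strand. The 2 genes of the Hippo kinase module did not keep their proportion. The FPKM of hpo was 1.17, 1.88 and 1.53 times that of sav in control discs and 1.41, 1.46 and 1.12 times in regenerating discs.

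The gene wts (FBgn0011739, chromosome 3R, 30789625 to 30806619, minus strand), whose kinase phosphorylates Yorkie directly, had ratios near the median of all genes at each time. It stood at 2.94, 5.38 and 5.01 FPKM in control discs and at 4.21, 6.26 and 5.52 FPKM in regenerating discs. The log2 ratios of 0.40, 0.19 and 0.12 became -0.07, -0.16 and 0.01 relative to all genes, and median-of-ratios scaling turned the first 2, to -0.02 and -0.15. The cofactor gene mats (FBgn0038965, chromosome 3R, 22421161 to 22423302, plus strand) varied more. It stood at 22.3, 29.8 and 39.2 FPKM in control discs and at 42.1, 53.5 and 31.3 FPKM in regenerating discs. Control levels of mats climbed over the 3 times, whereas in regenerating discs the 25 h value was the lowest. Its log2 ratios were 0.89, 0.82 and -0.32, and 0.36, 0.44 and -0.36 after scaling.

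The gene ex (FBgn0004583, chromosome 2L, 431227 to 448701, plus strand) stood at 8.22, 19.5 and 17.3 FPKM in control discs and at 13.2, 17.0 and 15.3 FPKM in regenerating discs. The control value at 15 h was the highest of the 6. Its log2 ratios were 0.63, -0.19 and -0.17, and 0.13, -0.56 and -0.21 after scaling. From 0 h to 15 h in control discs ex passed the rule as deposited, with a log2 ratio of 1.16, but not after scaling, at 0.81. Exons of crq on the opposite strand overlap 448 bases of ex, 6.71% of its exonic length, and whether the counting used strand is not stated.

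The gene kibra (FBgn0262127, chromosome 3R, 14697689 to 14724261, minus strand) stood at 1.95, 3.77 and 3.46 FPKM in control discs and at 3.18, 2.87 and 3.46 FPKM in regenerating discs. Regenerating discs were higher at 0 h, lower at 15 h and equal at 25 h. After scaling its log2 ratios were 0.12, -0.59 and -0.04. The giant cadherin gene ft (FBgn0001075, chromosome 2L, 4198404 to 4221796, minus strand) stood at 3.61, 8.01 and 6.72 FPKM in control discs and at 4.82, 6.27 and 6.54 FPKM in regenerating discs. Its log2 ratios were 0.34, -0.31 and -0.03, and -0.10, -0.65 and -0.07 after scaling. The direction at 0 h therefore depended on the scaling, and that at 15 h did not.

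At 0 h, the earliest time after induction, all 9 members were above 0 in log2 ratio, but so was the median gene, and 6 of 9 lay above that median. The members' median was 0.62, beside 0.47 for all genes. As deposited, 1 of 9 was higher by the rule, sd, and 0 lower, where 7.47% of 8202 measured genes were higher and 3.04% lower. After median-of-ratios scaling 0 of 9 passed, with 2.34% of 8295 genes higher and 5.46% lower.

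At 15 h the members stood apart from each other more than at 0 h. The genes yki, sav and mats had log2 ratios of 1.04, 0.84 and 0.82, and hpo and sd had 0.51 and 0.42. The upstream genes ex, kibra and ft were below 0, at -0.19, -0.30 and -0.31, and lay at percentiles 14.6, 10.5 and 10.4 of all measured genes. These 3 stayed lower in regenerating discs under each scaling, and each had its highest value of all groups in control discs at 15 h. Upstream genes outside the members were mostly above 0. Those of the lists below numbered 10 of 14 apical and junctional regulators and 5 of 6 Fat/Dachsous branch genes. Their medians were 0.26 and 0.18, below that of all genes. The members' median of 0.42 was close to the 0.35 of all genes. As deposited 1 of 9 was higher, yki, and 0 lower, where 5.95% of 8095 genes were higher and 2.20% lower. After scaling 0 of 9 passed, with 1.64% of 8049 genes higher and 4.01% lower.

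**Figure D2:**
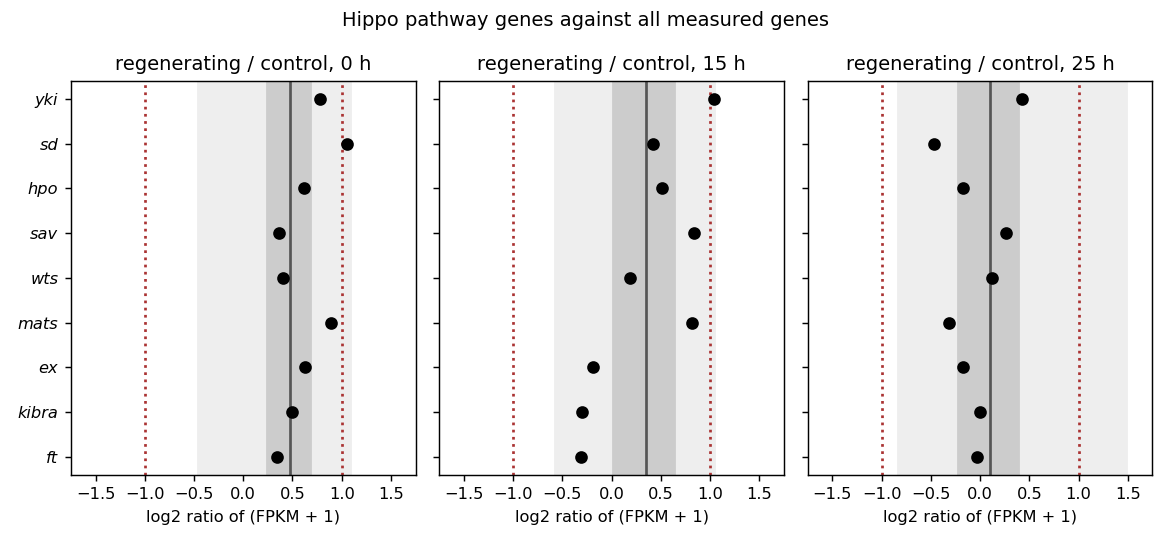
Log2 ratio of (FPKM + 1), regenerating over control, of each of the 9 genes (black points) at 0 h, 15 h and 25 h. The dark and light bands hold the middle 50% and 90% of all measured genes, the grey line is their median and the dotted lines are the rule of 2-fold. At 15 h yki lies near the upper edge of the light band while ex, kibra and ft lie to the left of the dark band.

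Level ratios within a column, which do not depend on scaling, restate the division of the members at 15 h. Each shift is the difference between the log2 ratios of 2 members, here without a pseudocount. Pairs of the highest and lowest members therefore shift most, so the shifts are not separate support. The FPKM of yki was 5.73 times that of kibra in control and 15.8 times in regenerating discs, the largest shift of the 36 pairs at 1.47 on the log2 scale. It was 2.70 and 7.26 times that of ft, a shift of 1.43. The next was sav over kibra, with a shift of 1.29. The ratio of yki to wts, the kinase gene that restrains it, was 4.02 in control and 7.26 in regenerating discs, a shift of 0.85. The 3 upstream genes shifted less against each other, by 0.19 for ex over kibra, 0.15 for ex over ft and -0.04 for kibra over ft. The FPKM of ex was 2.44 and 2.71 times that of ft, and that of kibra was 0.471 and 0.458 times. In regenerating discs the ratio of yki to ft was 7.30, 7.26 and 6.90 over the 3 times, whereas in control discs it was 5.57, 2.70 and 4.93.

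**Figure D3:**
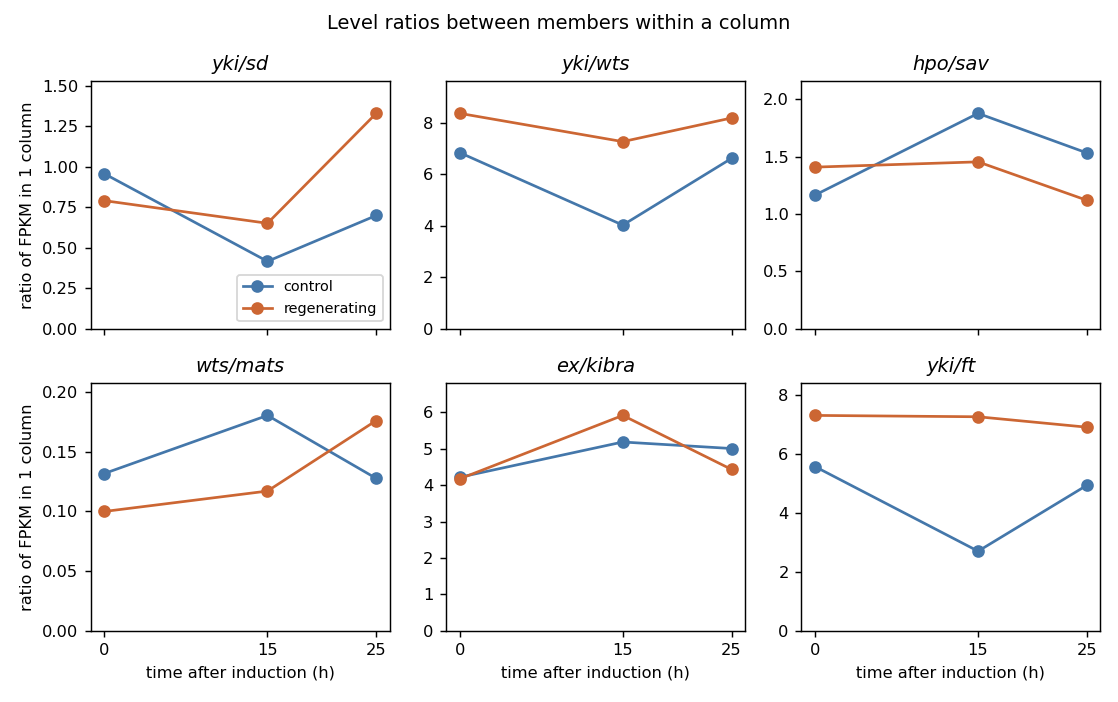
Ratio of the FPKM of 1 gene to another in the same column (vertical axes, from 0) over time in control and regenerating discs. The largest gap for yki over ft is at 15 h and that for yki over sd at 25 h. The points are authors' merged values without error bars.

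At 15 h the ratios went largely, though not wholly, with exonic length. This length joins the exons of all annotated transcripts of a gene, 22 for sd, and can exceed that of any 1 transcript. The exonic length is 1525 bases for yki, 1716 for mats and 2235 for sav, against 5750 for kibra, 6672 for ex and 16852 for ft. Against this, sd at 8766 bases and wts at 5803 bases are longer than kibra and stood above 0, at 0.42 and 0.19. Across the 9 members the Spearman rho of log2 ratio with length was -0.83 at 15 h, beside -0.25 at 0 h and -0.38 at 25 h. Members share the same columns, so this is a description. Across 7929 measured genes the rho at 15 h was 0.08, beside 0.13 at 0 h and -0.25 at 25 h. All deposited genes with an exonic length, measured or not, were split into 5 equal classes by length. Class medians are of measured genes. The median log2 ratio was 0.40, 0.52 and 0.32 in the classes that hold yki and mats, hpo and sav, and the other members. Relative to the median of its own class yki stood at 0.63, sav at 0.33 and mats at 0.42, and ex, kibra and ft at -0.51, -0.62 and -0.63. In control discs between 0 h and 15 h the rho with length was 0.90 across the members and 0.45 across 7913 genes. Length therefore moved with that step in the whole table. Across the members the rho was -0.97 from 15 h to 25 h in control discs, beside 0.03 across 7787 genes. It was -0.87 for regenerating discs at 25 h over control at 15 h, beside -0.15 across 8058 genes. These comparisons and that of conditions at 15 h share the control column at 15 h, so they are not independent. The steps of regenerating discs, which do not use that column, had a rho of -0.12 and 0.12 across the members. Across 8032 and 8003 genes the rho of these steps was 0.37 and -0.34, so length moved with them too in the whole table. The part of length or of that column in the members' values was not tested further.

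**Figure D4:**
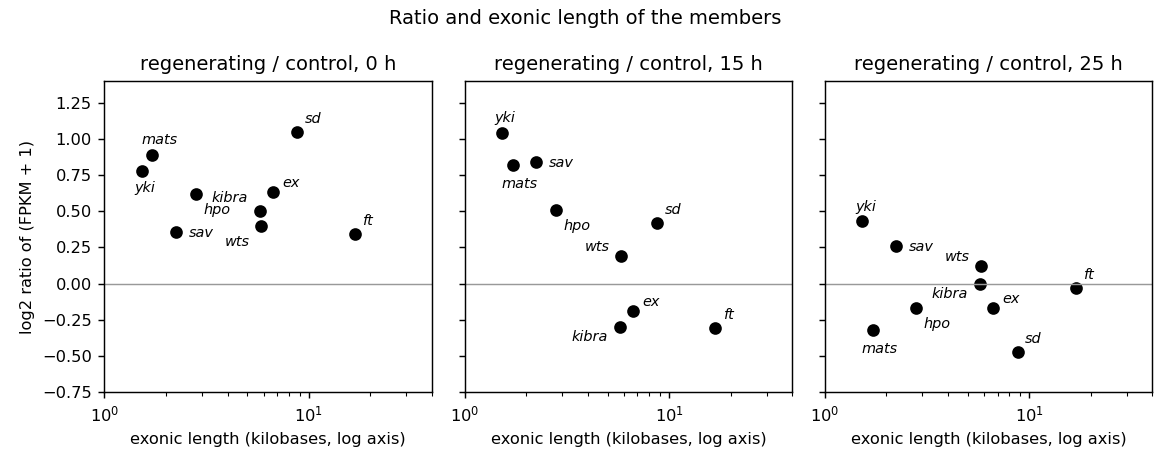
Log2 ratio of (FPKM + 1), regenerating over control, against exonic length in kilobases (log axis) for the 9 genes at each time. At 15 h the short genes yki, mats and sav lie at the top left and the long genes ex, kibra and ft below 0, while the long genes sd and wts lie above 0.

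At 25 h the members lay closer to each other than at 15 h. The log2 ratios ran from -0.47 for sd to 0.43 for yki, with a median of -0.03 beside 0.10 for all genes. By the rule 0 of 9 were higher and 0 lower as deposited, where 9.11% of 8148 genes were higher and 3.19% lower. Among genes above 0 in both columns, as all members were, 1.63% of 7477 were higher and 2.8% lower. After scaling 0 of 9 passed too, with 8.46% of 8081 genes higher and 3.51% lower. In level ratio the FPKM of yki was 0.844 times that of mats in control and 1.44 times in regenerating discs, a shift of 0.77. The ratio of sd to sav was 3.26 and 1.93, a shift of -0.75. These came next after yki over sd, and as at 15 h such shifts restate the ratios of the members. Relative to the median of its own length class yki stood at 0.27, sd at -0.44 and mats at -0.48, so mats was then the lowest. At 0 h the largest pair shifts were smaller, at 0.70 for sd over sav and 0.67 for sd over ft.

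Undamaged discs had their own course. From 0 h to 15 h all 9 members were above 0, with a median log2 ratio of 0.69 beside 0.30 for all genes, and 7 of 9 lay above that median. The rule was passed by 2 of 9, sd and ex, both higher, where 5.02% of 8072 genes were higher and 2.09% lower. The gene ft followed at 0.97. After scaling 0 of 9 passed, with 1.64% of 8232 genes higher and 4.46% lower. This step and the comparison of conditions at 0 h share the control column at 0 h, so they are not independent. From 15 h to 25 h 0 of 9 passed, where 1.01% of 7944 genes were higher and 5.30% lower. Among genes above 0 in both columns, as all members were, 0.334% of 7477 were higher and 0.12% lower. After scaling 0 of 9 passed again, with 0.853% of 7976 genes higher and 5.97% lower.

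In regenerating discs from 0 h to 15 h 8 of 9 members were above 0, kibra being the exception at -0.11, and 0 of 9 passed the rule where 3.26% of 8199 genes were higher and 3.68% lower, and 0 after scaling with 1.96% of 8113 higher and 4.75% lower. From 15 h to 25 h 7 of 9 were below 0 and 1 of 9, sd, was lower by the rule, where 2.58% of 8169 genes were lower and 2.86% higher. After scaling 0 of 9 passed, with 1.6% of 8076 genes lower and 3.1% higher. The genes mats and hpo came next to sd as deposited, at -0.75 and -0.62 and percentiles 6.1 and 9.7. Regenerating discs at 25 h were also set against younger control discs at 15 h. There 1 of 9 was higher by the rule, yki at 1.03, and 0 lower, where 7.61% of 8222 genes were higher and 3.96% lower. After scaling 0 of 9 passed, with 4.12% of 8209 genes higher and 6.27% lower. In that comparison sd stood at -0.60, and only yki and sav lay above the median of all genes.

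Among all genes of at least 5 FPKM in every group, 5516 in all, those with the course most like that of yki over the 6 scaled columns were lark, which encodes an RNA-binding protein, at a Pearson r of 0.995, l(2)dtl at 0.994 and CG12814 at 0.993. For sd they were lqfR at 0.995, Naus at 0.993 and vap at 0.990. With 6 points that share columns and so many genes compared, high values are common. Among the members themselves the most alike were sd and hpo at 0.95 and ex and ft at 0.94, and the least alike were sav and kibra at -0.91. The course of yki was most like that of sav, at 0.76.

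Genes around the pathway were counted in 5 lists. At 0 h, 1 gene passed the rule in all lists together. It was Magi, a junctional scaffold, with 4.46 FPKM in control discs and 10.1 FPKM in regenerating ones. Its log2 ratio was 1.02 as deposited and 0.56 after scaling. Of the apical and junctional regulators, 1 of 14 was therefore higher and 0 lower, with a median of 0.58 beside 0.47 for all genes. Over all measured genes 7.47% were higher and 3.04% lower, so 1 of 14 is near the background. Of 6 measured Fat/Dachsous branch genes 0 passed, with a median of 0.40. The highest was lft, whose protein binds the inner parts of Fat and Dachsous, at 118 and 224 FPKM. Of 12 measured kinases, phosphatases and scaffolds 0 passed, with a median of 0.58, and those with the largest ratios were Fgop2, Cka and Mob4 of the STRIPAK phosphatase complex, which counteracts Hippo. They stood at 0.96, 0.88 and 0.84. Of 14 nuclear partners 0 passed, with a median of 0.51, and of 10 measured reported targets 0 passed, with a median of 0.68. The EGFR ligand gene Krn was the highest of the targets at 0.87.

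At 15 h 0 genes of the 5 lists were past the rule, where 5.95% of all measured genes were higher and 2.20% lower. Their medians of 0.18, 0.26, 0.33, 0.34 and 0.39, from the Fat/Dachsous branch to the reported targets, lay beside 0.35 for all genes. In the same order, those above 0 numbered 5 of 6, 10 of 14, 10 of 12, 10 of 14 and 10 of 10. The members ex and kibra, also reported targets of Yorkie, are not in the target list and stood below 0, at -0.19 and -0.30. The level of Krn was 7.49 FPKM in control discs and 14.4 FPKM in regenerating ones. The kinase gene dco, whose product phosphorylates Fat, stood at 21.4 and 34.0 FPKM, and Dlish, a partner of the myosin Dachs, at 67.9 and 80.3 FPKM. The gene Trl, which encodes the GAGA factor, stood at 61.8 and 93.9 FPKM. Of the other list genes named at any time, lft, ed and Mad were below 0 as deposited, at -0.12, -0.10 and -0.11. After scaling they stood at -0.51, -0.48 and -0.48. The rest of the named genes were above 0 as deposited.

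At 25 h every list had its median below that of all genes. The medians were -0.21 for the Fat/Dachsous branch, -0.08 for apical and junctional regulators, -0.24 for kinases and scaffolds, -0.29 for nuclear partners and -0.31 for reported targets, beside 0.10 for all genes. Those above 0 numbered 2 of 6, 7 of 14, 2 of 12, 4 of 14 and 2 of 10. The lower genes by the rule were 1 of 14 regulators and 1 of 10 targets, with 0 higher in any list, where 3.19% of all measured genes were lower and 9.11% higher. The first was the polarity kinase gene aPKC, with 45.9 FPKM in control discs and 19.3 FPKM in regenerating ones, at a log2 ratio of -1.21. The second was the growth regulator Myc, with 7.79 FPKM in control discs and 1.72 FPKM in regenerating ones, at -1.69. Both passed after scaling too, though the lower value of Myc is close to the minimum of 1 FPKM and depth is unknown. Among genes above 0 in both columns, 2.8% were lower and 1.63% higher. Other named genes of the lists were within the rule. The adhesion gene ed stood at 31.0 and 15.5 FPKM, lft at 208 and 108 FPKM and hth, a homeobox gene whose protein partners Yorkie in the eye, at 48.3 and 26.1 FPKM. The cell cycle regulator gene E2f1 stood at 28.4 and 15.5 FPKM and Mad, the transcription factor of Dpp signalling, at 31.2 and 17.1 FPKM. Across 7984 genes the 25 h ratio and exonic length had a Spearman rho of -0.25, with a median ratio of 0.42 in the shortest length class and -0.03 in the longest. Its part in the lists was not tested.

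**Figure D5:**
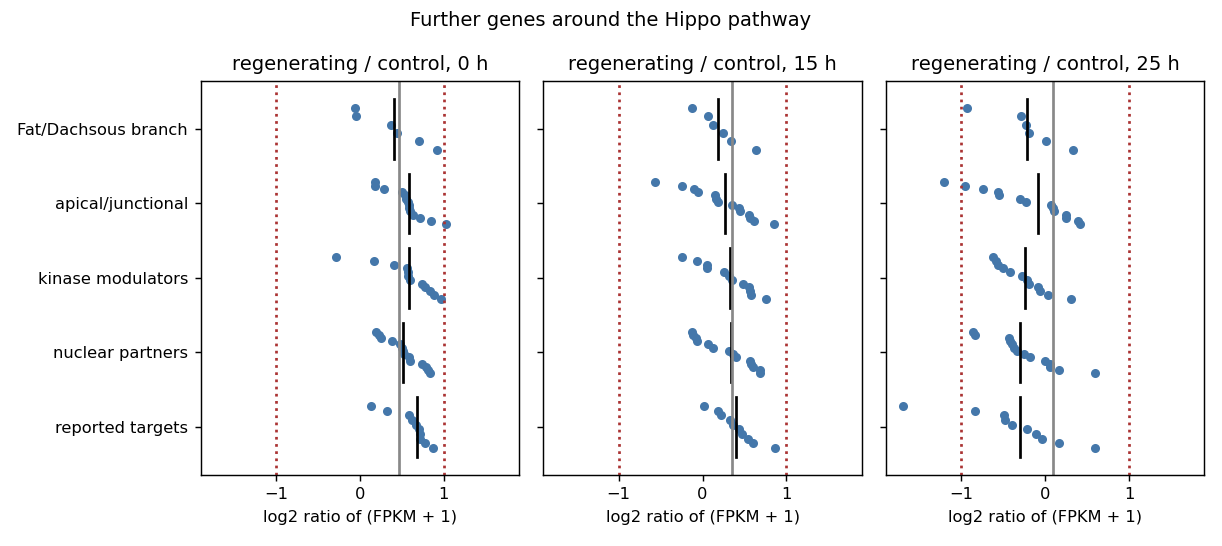
Log2 ratio of (FPKM + 1), regenerating over control, of the measured genes of the 5 lists (blue points) at each time. Black bars are list medians, the grey line is the median of all measured genes and the dotted lines are the rule of 2-fold. At 25 h all 5 bars lie left of the grey line, and the 2 points left of -1 are aPKC and Myc.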

How the data were processed

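RNA-seq of 12 libraries was deposited by the authors as FPKM, 1 column for each of 6 groups, with replicates merged. Per the submitters' processing notes, STAR 2.4.0j and RSEM were used with the build dm6, in roles not stated. The way of merging is not stated either, and depth is unknown. In 5 columns, whole numbers of at least 1000 ending in 5 were divided by 1000, since points of values with 3 decimals had been lost. This applied to 19566 values, of which 1 (Act5C, regenerating, 25 h) was ambiguous and left out. A further column, 1 in all, was not used. Symbols were paired with 16912 identifiers. Coordinates and exonic lengths come from the Ensembl annotation BDGP6.54, the same assembly as dm6.

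Log2 ratios used a pseudocount of 1 over genes reaching 1 FPKM in either column, with Python 3.11.15 and pandas 2.3.3. A design with 1 column per group allows no test, so a rule of size was used. Calculations were tested on simulated data. The members and lists were chosen with earlier results of these data known. From each list the text names genes past the rule. It also names the 3 whose largest ratio at any of the 3 times was greatest, among genes of at least 5 FPKM. Values of these genes are not all given at every time. Of the names listed, ds, d, slmb, ban, wg and btl matched no row. Marker lists of hemocytes, nerve and salivary gland were summed too and reached at most 10.4, 4.82 and 4.98 FPKM in any group. No sequence was used here.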

Additional observations from a re-analysis of the deposited data

How the results depend on the processing

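No paired analysis was possible because the table holds 1 merged column per group, and for the same reason no replicate could be left out. Of the 9 members, the number past the rule as deposited was 1, 1 and 0 at 0 h, 15 h and 25 h for regenerating over control. It was 2 and 0 for the steps of control discs, 0 and 1 for those of regenerating discs, and 1 for regenerating discs at 25 h over control at 15 h. Under median-of-ratios scaling, a rule of 4 times, centring on the median of all genes and centring on the median of genes in the same length class, the count was 0 in every comparison. Both centrings were chosen after seeing the data. With a pseudocount of 5 it was 0 in each except the control step from 0 h to 15 h, where it was 1, sd. With columns scaled to 1000000 the count for 25 h over control at 15 h was 0. A rule of 1.5 times gave 5, 3 and 0 members for regenerating over control, all higher, where 35.7%, 29.4% and 14.9% of measured genes were higher and 4.13%, 4.85% and 9.73% lower. It gave 6 and 1 for control steps, all higher, where 25.0% and 4.57% of genes were higher. For regenerating steps it gave 1 higher and 3 lower, where 16.0% of genes were higher in the first and 11.2% lower in the second. For 25 h over control at 15 h it gave 3, of which 2 were higher and 1 lower, where 25.5% of genes were higher and 10.4% lower. A pseudocount of 0.1, the other filters and the restriction to genes above 0 in both columns left each count within 1.5 times. No member past the rule changed sign under an alternative. Single ratios of members changed sign 36 times, and on none of these was the ratio past the rule before or after. Depth is unknown, so the counting error of low genes such as kibra cannot be given.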
